A study of Mus musculus with 4 samples.

Results

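Natural killer (NK) cells were examined in single-cell RNA sequencing libraries of the mouse brain hemisphere on the side of an ischemic stroke. A cell barcode was taken as an NK cell when at least 2 of Ncr1, Klrb1c, Gzma, Nkg7 and Il2rb had a unique molecular identifier (UMI, one counted mRNA molecule), Ncr1 or Klrb1c was among them, and Cd3e, Cd3d, Cd3g, Csf1r and Cldn5 had none. This gate held 107 of 60942 kept barcodes, of which 6 came from the 2 Ms4a3 cKO libraries and 101 from the 2 Flox control libraries. The cells were thus chosen by the measured counts of these 10 genes, so that the levels of these genes, and every contrast of NK cells with other cells, are given as descriptions with no test.

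The Ms4a3 cKO libraries came from mice whose genotype the labels write as Htr2b ERCre with Ms4a3-Cre, where Htr2b is the gene of the serotonin receptor 5-HT2B. The Flox control libraries came from littermates homozygous for the floxed Htr2b allele. All mice were adult, male and/or female, carried the genotype label C57B6, and per the design text were given tamoxifen and then a washout of 3 days. A transient occlusion of the middle cerebral artery (tMCAO) followed, and the hemisphere on the occluded side was taken 3 days later and dissociated with papain and DNase, with red cells lysed and no cell type enriched. Ms4a3-Cre is driven by a gene of the bone marrow progenitors that give rise to granulocytes and monocytes. Since the labels name both Ms4a3-Cre and ERCre, which Cre acted cannot be read from them, and neither is described there as directed at NK cells. Nothing in the labels ties the 2 libraries of a group to separate animals. The p-values therefore compare these libraries only, and differences between libraries may be technical.

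NK cells are innate lymphocytes that kill stressed or infected cells without a rearranged antigen receptor. Germline-encoded activating and inhibitory receptors, many of them in the Klr gene cluster, set whether the cell releases perforin and granzymes from its granules. NK cells depend on interleukin-15, which signals through the receptor chain encoded by Il2rb, and they enter the brain from the blood after stroke. Mouse NK cells are usually ordered in a series of maturation stages, with CD27 and TCF-1 (Tcf7) early and CD11b (Itgam), KLRG1 and Zeb2 late.

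The Ms4a3 cKO libraries held 15756 and 16321 barcodes and the Flox control libraries 14007 and 17097. Median depth of the kept barcodes was 3808 and 4027 UMIs in the Ms4a3 cKO libraries, against 6639 and 5547.5 UMIs in the Flox control libraries, so that the cKO libraries were shallower. Median depth of the NK cells themselves was 1286.5 and 1587 UMIs in Ms4a3 cKO 1 and 2, against 2357.5 and 1637 UMIs in Flox control 1 and 2. Among the kept barcodes 13 sequences recurred in more than 1 library, and none of them was an NK cell. Flox control 1 stood apart in its lymphocytes and its vessel cells. A gate for T cells (at least 2 of Cd3e, Cd3d, Cd3g, Trbc2 and Trac, a Cd3 gene among them, with no UMI of Csf1r or Cldn5) held 30 and 44 barcodes in the Ms4a3 cKO libraries, against 459 in Flox control 1 and 45 in Flox control 2. A gate for endothelial cells held 452 and 421 barcodes in the Ms4a3 cKO libraries, against 24 in Flox control 1 and 268 in Flox control 2.

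Ms4a3 cKO 1 and 2 held 2 and 4 NK cells, against 66 and 35 in Flox control 1 and 2. Their share of kept barcodes was 0.0131% (exact binomial 95% interval 0.00158 to 0.0473%) in Ms4a3 cKO 1 and 0.0256% (0.00697 to 0.0655%) in Ms4a3 cKO 2. In Flox control 1 the share was 0.488% (0.378 to 0.621%), and in Flox control 2 it was 0.212% (0.148 to 0.295%). Both cKO libraries thus lay below both Flox control libraries, with no overlap of the intervals, which cover counting error only. The log2 ratio of the mean shares, cKO over Flox, was -4.18, and a two-sided exact permutation test over libraries gave p = 0.33 (n = 2 each), the smallest value that 2 against 2 libraries allow. By this test the ratio therefore cannot pass a threshold of 0.05. Without Flox control 1 the log2 ratio was -3.45.

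The same order was seen among immune barcodes. All 107 NK cells had a UMI of Ptprc, which encodes CD45, the common leukocyte surface protein. Of barcodes with a Ptprc UMI, NK cells made up 0.0220% and 0.0477% in Ms4a3 cKO 1 and 2, against 0.591% and 0.322% in Flox control 1 and 2. The log2 ratio with this denominator was -3.71 (exact permutation p = 0.33).

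Set against T cells, the separation was smaller. NK cells were 6.25% (0.766 to 20.8%) and 8.33% (2.32 to 19.98%) of NK and T gate barcodes in Ms4a3 cKO 1 and 2, against 12.6% (9.86 to 15.7%) in Flox control 1 and 43.75% (32.7 to 55.3%) in Flox control 2. The log2 ratio, cKO over Flox, was -1.95 (two-sided exact permutation test, p = 0.33, n = 2 each), and without Flox control 2 it was -0.79. The intervals of both cKO libraries overlapped that of Flox control 1 and not that of Flox control 2. When each barcode was thinned to 1000 UMIs before the gate, the shares were 18.75% and 11.4% in the cKO libraries, against 15.5% and 50% in the Flox control libraries. The groups then overlapped, and p was 0.667 in the exact permutation test. The 18.75% of Ms4a3 cKO 1 rests on 3 NK and 13 T gate barcodes. Without thinning, its barcodes of at least 1000 UMIs gave 1 and 29. Thinning can also remove UMIs of the excluded genes, so it changed which barcodes passed the gates as well as their depth. T gate barcodes were 0.196% and 0.282% of kept barcodes in the cKO libraries, against 3.40% and 0.272% in the Flox control libraries. Without Flox control 1 their log2 ratio was -0.19, where that of the NK share was -3.45. The part of depth in these shares was addressed only by the thinning, after which the NK share of kept barcodes kept its direction (log2 ratio -3.79).

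**Figure D1:**
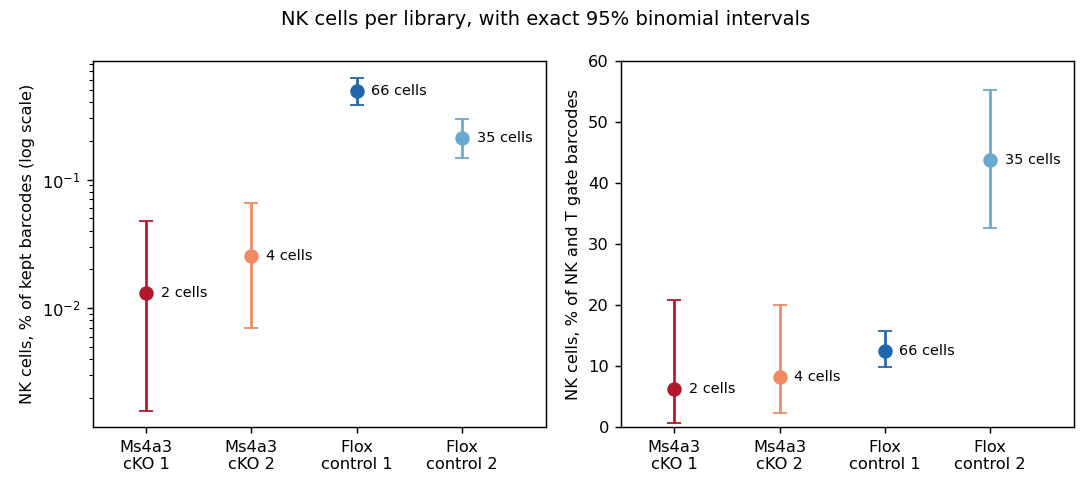
NK cells as a percentage of kept barcodes (left, log scale) and of NK and T gate barcodes (right), with 1 point per library and exact binomial 95% intervals, which cover counting error only. On the left both Ms4a3 cKO libraries (2 and 4 cells) lie below both Flox control libraries (66 and 35 cells), and on the right the cKO intervals overlap that of Flox control 1.

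Of 158 kept barcodes with at least 2 of the 5 NK genes and Ncr1 or Klrb1c among them, 51 were removed for a UMI of an excluded gene, most often Cd3e or Cd3g (25 barcodes each) and Csf1r (20). Of the 107 members, 34 had all 5 NK genes, 45 had 4, 20 had 3 and 8 had 2. Ncr1, which encodes the activating receptor NKp46, was seen in 75 members, and Klrb1c, which encodes NK1.1, in 99. Both were seen in 67 members. Just outside, 14 barcodes carried Ncr1 or Klrb1c alone of the 5 genes, and none of these had a UMI of Klrd1, Klrk1, Eomes, Gzmb or Prf1.

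The label was checked against 21 NK cell markers that the gate did not use, counted per cell. The median NK cell carried 13.5 and 8.5 of them in Ms4a3 cKO 1 and 2 and 11 in each Flox control library, and no NK cell carried fewer than 5. The median T gate cell carried 2 and 3 in the cKO libraries and 2 and 1 in the Flox control libraries. Microglia carried a median of 2 and endothelial cells of 0 in every library. Fcer1g and Tyrobp, adaptor genes that myeloid cells share, were detected in 99.5% and 80.8% of the microglia of Flox control 1. Klrd1 was detected in 95.5% and 85.7% of NK cells of Flox control 1 and 2, against 1.05% and 0.86% of microglia, although the microglia were deeper (median 6751 and 6795 UMIs). Prf1 was detected in 47.0% and 60% of these NK cells, and in no microglia gate barcode of these libraries. The list was set up with earlier results of these data known.

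The NK cells' levels are given from here on as CPM, the number of UMIs of a gene per 1000000 UMIs of all genes in the library's NK cells. Their UMIs summed to 2573 and 6934 in Ms4a3 cKO 1 and 2, against 176524 and 77468 in Flox control 1 and 2. A count of 3 UMIs corresponds to 1166 and 433 CPM in the cKO libraries, against 17.0 and 38.7 CPM in the Flox control libraries, which therefore carry the description. Of 9308 genes with at least 10 UMIs over both gates in the Flox control libraries, 23.9% were higher in NK than in T gate cells in both libraries and 28.9% were lower in both. These shares are the background for the counts of list members that follow.

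All 21 of the NK markers outside the gate were higher in NK than in T gate cells in both Flox control libraries, where 23.9% of all measured genes were. Without 6 NK barcodes of over 5000 UMIs, chosen after seeing the data, 20 of the 21 were, the exception being Tbx21, which was then lower in NK than in T gate cells of Flox control 1. Of the genes that chose the cells, Ncr1 had 0 and 144 CPM in the NK cells of Ms4a3 cKO 1 and 2, against 668 and 671 CPM in those of Flox control 1 and 2, while Klrb1c had 1555 and 1154 CPM in the cKO libraries, against 1241 and 1226 CPM in the Flox control libraries. Only 1 UMI of Ncr1 was counted in the 6 cKO cells. Il2rb stood at 4275 and 3317 CPM in the cKO libraries, against 2170 and 2169 CPM in the Flox control libraries. In GENCODE's gene models for GRCm38, which mm10 stands for, Ncr1 lies on chromosome 7 from 4337724 to 4345164 on the plus strand, and Klrb1c lies on chromosome 6 from 128778485 to 128789215 on the minus strand.

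Activating receptors made up one of the clearest groups, with 13 of 17 measured members higher in NK than in T gate cells in both Flox control libraries and 3 lower. Klrk1, which encodes NKG2D, the receptor for stress-induced ligands, had 861 and 736 CPM in NK cells of Flox control 1 and 2, against 142 and 30.4 CPM in T gate cells. Klre1, which forms heterodimers with other Klr chains, had 1575 and 762 CPM in NK cells, against 76.6 and 0 CPM in T gate cells. Klrc2, which encodes NKG2C, had 499 and 697 CPM in NK cells, against 37.9 and 20.2 CPM in T gate cells. Slamf6 and the adhesion receptor genes Cd226 and Cd2 were the 3 members lower in NK cells. Cd226, for example, had 232 and 168 CPM in NK cells, against 324 and 354 CPM in T gate cells.

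Of 16 measured inhibitory receptor genes, 11 were higher in NK cells in both libraries and 1 was lower. Klrd1 encodes CD94, the partner chain of the NKG2 receptors that read the class I molecule Qa-1, and it had 1937 and 1239 CPM in NK cells, against 332 and 152 CPM in T gate cells. Klrc1, which encodes its inhibitory partner NKG2A, had 623 and 258 CPM in NK cells, against 200 and 101 CPM in T gate cells. Klrk1 and Klrd1 were seen together in 78 of the 107 NK cells, and every cell had at least 1 of them. The member lower in NK cells was Pdcd1, the gene of the checkpoint receptor PD-1, with 1 UMI in Flox control 1 and none in Flox control 2. Havcr2, the gene of the checkpoint receptor TIM-3, and the activation-linked Lag3 had at most 1 UMI in all Flox control NK cells.

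The Klra genes encode the Ly49 receptors, many of which read classical class I molecules and of which each NK cell expresses a subset. The 17 Klr genes looked up, Klra genes included, all lay on chromosome 6 between 128778485 and 131247362 of GRCm38. Klra8, which encodes the activating Ly49H, had 1835 and 1239 CPM in the NK cells of Flox control 1 and 2, against 12.4 and 0 CPM in T gate cells. Klra4, which encodes the activating Ly49D, had 1207 and 942 CPM in NK cells, against 5.52 and 0 CPM in T gate cells. Klra8 was seen in 31 and 17 and Klra4 in 30 and 16 of the 66 and 35 NK cells. Klra17 and Klra2, genes expressed mainly outside NK cells, had no UMI in any of the 107 NK cells.

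Counted per cell, the Klra family was spread unevenly. Of the 107 NK cells 20 had none of the 11 Klra genes looked for, 11 had 1, 22 had 2, 29 had 3 and 25 had 4 or more. The distribution looked alike in both Flox control libraries, where 54 of 66 and 28 of 35 cells had at least 1. Which genes were seen differed more. Klra9, the gene of the inhibitory Ly49I, was detected in 21 of 66 NK cells of Flox control 1 and 21 of 35 of Flox control 2, while Klra1, the gene of the inhibitory Ly49A, was detected in 15 and 2. Klra genes are near-identical copies, so the authors' counting may have split or lost reads between them, and the identity of single members is uncertain. A cell of low depth can also lack a UMI of a gene it expresses.

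**Figure D2:**
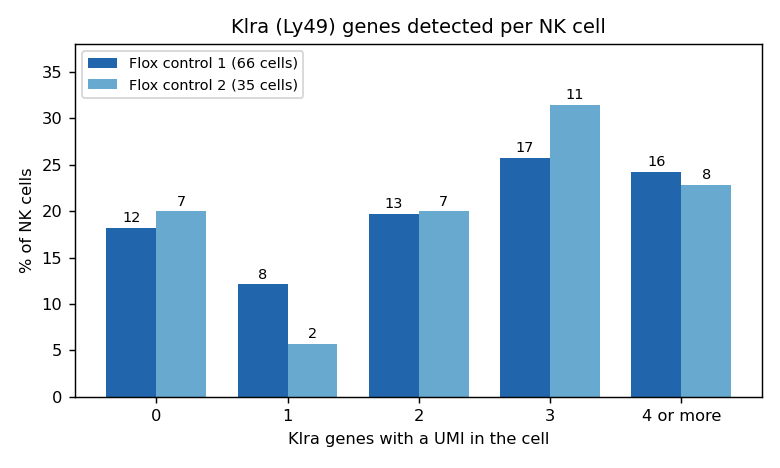
Share of NK cells (vertical axis, % of the library's NK cells) by the number of Klra genes with at least 1 UMI in the cell, for Flox control 1 (66 cells) and Flox control 2 (35 cells). Numbers over the bars are cells. In both libraries more cells had 3 Klra genes (17 and 11 cells) than had 0, 1 or 2.

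Receptor adaptor and signalling genes were mixed, with 9 of 22 measured members higher and 9 lower in NK cells in both Flox control libraries. Fcer1g, which encodes the Fc receptor gamma chain that carries the signal of NKp46, had 1841 and 1536 CPM in NK cells, against 145 and 152 CPM in T gate cells. Tyrobp, which encodes DAP12, the adaptor of the activating Ly49 receptors, had 193 and 219 CPM in NK cells, against 20.0 and 70.9 CPM in T gate cells and 413 and 349 CPM in microglia. Txk, a kinase of the Tec family, had 363 and 620 CPM in NK cells, against 69.7 and 182 CPM in T gate cells. The T cell receptor kinase gene Zap70 and the linker gene Lat were lower, and Zap70 had no UMI in any NK cell of the Flox control libraries. Lat2, the related linker, showed 357 and 103 CPM in NK cells, against 23.5 and 10.1 CPM in T gate cells.

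Of 21 measured genes of the cytotoxic granule and death ligands, 12 were higher in NK cells in both libraries and 2 lower. Gzmb, the gene of granzyme B, had 974 and 2311 CPM in NK cells of Flox control 1 and 2, against 426 and 121 CPM in T gate cells. Prf1, the gene of the pore-forming perforin, had 374 and 671 CPM in NK cells, against 21.4 and 0 CPM in T gate cells. Serpinb9, whose product protects the killer cell against its own granzyme B, had 838 and 1304 CPM in NK cells, against 143 and 111 CPM in T gate cells. Fasl, the gene of a death receptor ligand, had 108 and 245 CPM in NK cells, against 64.8 and 50.6 CPM in T gate cells. Of the 107 NK cells 56 had both Gzma and Gzmb, 24 had Gzma alone, 7 had Gzmb alone and 20 had neither. Gzmk, a granzyme of memory T cells, had no UMI in NK cells, and 62.8 CPM in the T gate cells of Flox control 1.

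Among 13 measured cytokine and chemokine genes, those of chemokines had the highest levels in NK cells. Ccl5 had 1632 and 839 CPM in NK cells, against 685 and 70.9 CPM in T gate cells. Ccl4 had 346 and 826 CPM in NK cells, against 105 and 152 CPM in T gate cells. Xcl1, whose product attracts cross-presenting dendritic cells, had 357 and 297 CPM in NK cells, against 57.3 and 0 CPM in T gate cells. In Flox control 2 a single NK barcode held 11 UMIs of Xcl1. Ifng, the classical NK cell cytokine, had 3 and 2 UMIs in the NK cells of Flox control 1 and 2, and Tnf had 2 and 1 UMIs. In all, 6 genes of this list were higher in NK than in T gate cells in both libraries and 3 were lower. The list's summed level was 2844 and 2595 CPM in NK cells of Flox control 1 and 2, below the 4949 and 5499 CPM in microglia.

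Among 25 measured transcription factor genes 11 were higher and 7 lower. Eomes, which defines conventional NK cells, had 623 and 465 CPM in NK cells, against 75.9 and 50.6 CPM in T gate cells. Tbx21, the gene of T-bet, was rare, with 17.0 and 90.4 CPM in NK cells, against 15.2 and 0 CPM in T gate cells. Eomes was seen in 62 and Tbx21 in 10 of the 107 cells. Irf8 had 419 and 568 CPM in NK cells, against 42.8 and 0 CPM in T gate cells, but it was also detected in 81.3% and 74.9% of microglia. Id2, a regulator that innate lymphocytes need for their development, had 1643 and 1420 CPM in NK cells, against 1181 and 779 CPM in T gate cells.

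**Figure D3:**
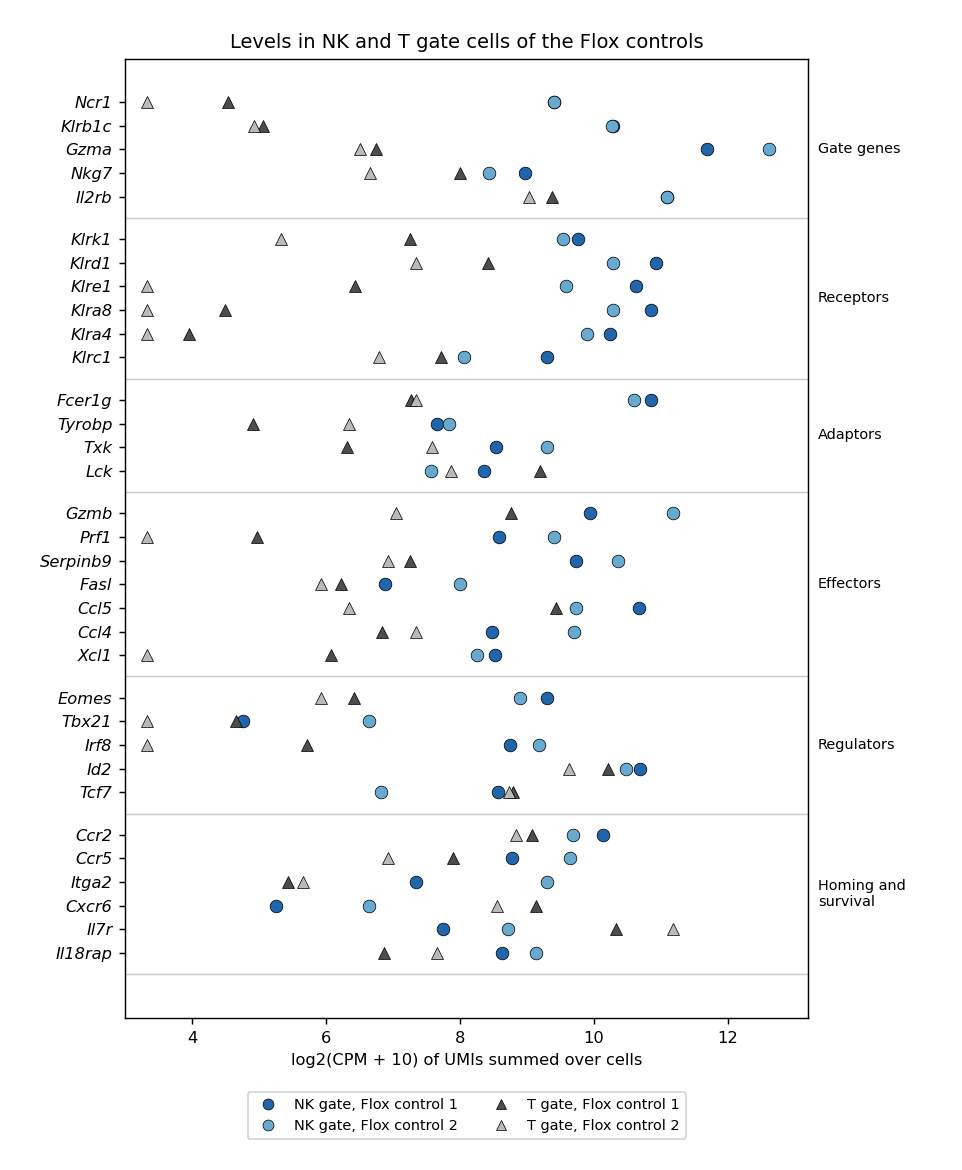
Levels of gate, receptor, adaptor, effector, regulator and homing genes in NK cells (circles) and T gate cells (triangles) of both Flox control libraries, as log2(CPM + 10) of UMIs summed over cells, on which scale 0 CPM lies at the left edge of the points. Circles lie to the right of triangles for Klra8, Fcer1g and Prf1 in both libraries, and to the left for Il7r and Cxcr6.

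Trafficking genes leaned towards the NK cells, with 16 of 23 measured chemokine receptor and adhesion genes higher and 5 lower in both Flox control libraries. Ccr2, whose product draws cells from the blood to CCL2, had 1122 and 813 CPM in NK cells, against 530 and 445 CPM in T gate cells. Cxcr6, a receptor of tissue-resident lymphocytes, had 28.3 and 90.4 CPM in NK cells, against 550 and 364 CPM in T gate cells. S1pr1, which guides T cells out of lymph nodes, was lower in NK cells (85.0 and 77.5 CPM, against 269 and 435 CPM in T gate cells), while S1pr5, its NK cell counterpart, had 39.7 and 38.7 CPM, against 6.90 and 0 CPM. The S1pr5 levels rest on 7 UMIs in the NK cells of Flox control 1 and on 3 in those of Flox control 2.

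Cytokine receptor and JAK-STAT genes were divided, with 8 of 26 higher and 10 lower. Il18rap, a chain of the interleukin-18 receptor, had 385 and 555 CPM in NK cells, against 106 and 192 CPM in T gate cells. Il12rb2, a chain of the interleukin-12 receptor, had 215 and 374 CPM in NK cells, against 52.4 and 60.7 CPM in T gate cells. Il7r, the interleukin-7 receptor of naive and memory T cells and of helper-like innate lymphocytes, had 204 and 413 CPM in NK cells, against 1283 and 2308 CPM in T gate cells.

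Genes of related innate lymphocytes were compared in the same way. Of 13 measured genes of type 1 innate lymphoid cells and tissue residency, 2 were higher and 6 lower in NK than in T gate cells (1 higher and 6 lower without the barcodes over 5000 UMIs), and their summed level was 2549 and 2904 CPM in the NK cells of Flox control 1 and 2, against 4682 and 5041 CPM in T gate cells. Rgs2 and Rgs1, regulators of G protein signalling, held much of that sum, with 691 and 1110 CPM for Rgs2 and 799 and 465 CPM for Rgs1 in NK cells. Of 7 measured genes of type 2 and 3 innate lymphoid cells none was higher and 7 were lower. Il23r, Il1rl1 and Il17a had no UMI in any of the 107 NK cells, and Gata3 was the only gene of the type 2 and 3 list with more than 1 UMI. At least 1 of 3 genes of type 1 innate lymphoid cells was detected in 24 of the 107 cells. Itga1, their integrin, was seen together with Eomes in 7 cells and without it in 4.

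T cell markers were measured because a barcode with no Cd3 UMI can still be a T cell. None of 13 measured T cell markers was higher in NK cells in both Flox control libraries, and 11 were lower. Trac and Trbc2 are 2 of these 11, and since they were among the genes that chose the T gate cells, their direction was set by that gate. Apart from them, 9 of 11 markers were lower. Cd8a, Cd8b1, Cd5 and Cd6 had no UMI in any of the 107 NK cells, for which a count of 0 allows a share of up to 2.80% of cells with a UMI. Trac, the constant gene of the T cell receptor alpha chain, had 5.66 and 12.9 CPM in NK cells, against 847 and 658 CPM in T gate cells. Trbc1, a beta chain constant gene, had 476 and 232 CPM in NK cells, against 466 and 314 CPM in T gate cells, and its near-identical neighbour Trbc2 had 249 and 116 CPM, against 1364 and 1448 CPM. A UMI of Trac, Trbc1, Trbc2 or Trdc was present in 73 of the 107 cells, including all 6 cells of the Ms4a3 cKO libraries. Requiring none left 0 and 0 NK cells in the cKO libraries, against 14 and 20 in the Flox control libraries.

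Markers of other cell types were also counted in the NK cells. The mast cell and basophil list and the red cell list had no UMI, and the 8 neutrophil markers had 2 UMIs in each Flox control library and none in the cKO libraries. The microglia markers P2ry12, Tmem119, Siglech and Olfml3 had at most 1 UMI each in all NK cells. The summed level of 12 microglia markers was 0 and 1442 CPM in the cKO libraries, against 476 and 1704 CPM in the Flox control libraries. Of the 132 UMIs behind the sum in Flox control 2, 86 were Sparc in a single barcode. The summed level of 12 monocyte-macrophage markers was 3109 and 865 CPM in the cKO libraries, against 850 and 2737 CPM in the Flox control libraries. Lyz2, the gene of lysozyme and the most abundant of these, had 312 and 684 CPM in the NK cells of Flox control 1 and 2, against 526 and 1245 CPM in T gate cells, 289 and 402 CPM in endothelial barcodes and 23207 and 12275 CPM in all kept barcodes outside the NK gate. The part of these transcripts in the levels given here was not tested.

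A few NK barcodes held most of the transcripts of genes typical of other cells. In Flox control 2 a single NK barcode carried 86 of the 91 UMIs of Sparc, a gene of microglia and vessels, and 52 of the 59 UMIs of Fn1, the fibronectin gene, also lay in 1 barcode. H2-Aa, an antigen presentation gene of myeloid and B cells, had 60 of its 70 UMIs in 1 barcode of Flox control 1 and 73 of its 82 UMIs in 1 barcode of Flox control 2. Scrublet, a program that predicts doublets, marked 1 of the 107 NK cells. There were 4 NK barcodes with over 5000 UMIs in Flox control 1 and 2 in Flox control 2, holding 15.5% and 20.2% of the NK UMIs. Without them the summed microglia markers were at 469 and 680 CPM in Flox control 1 and 2. H2-Aa then fell to 67 CPM in Flox control 1, against 397 CPM with them, but in Flox control 2 it kept all 82 UMIs and stood at 1327 CPM, against 1058 CPM with them.

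The 2 Flox control libraries differed from each other in NK cell genes, as seen from exact Poisson intervals that did not overlap (95%, counting error only). Such intervals leave out the variation between cells, and with 1 library on each side there is no test. Of 4623 genes with at least 10 UMIs in the NK cells of both libraries together, 2.77% were higher in Flox control 1 and 5.06% in Flox control 2 by this measure. Abundant genes have narrower intervals than most of these. Of 12 genes of late maturation, Gzmb, Zeb2 and Spn were higher in Flox control 2 and none in Flox control 1. Without the barcodes over 5000 UMIs Prdm1 was a 4th, with 73.7 CPM (36.8 to 132) in Flox control 1 and 259 CPM (148 to 420) in Flox control 2, where the shares over all 4623 genes were 2.25% and 4.48%. Gzmb had 974 CPM (834 to 1131) in Flox control 1 and 2311 CPM (1985 to 2675) in Flox control 2. Zeb2, a factor of terminal NK cell maturation, had 198 CPM (138 to 276) and 723 CPM (546 to 939). Itga2, which encodes CD49b, an integrin of conventional NK cells, had 153 CPM (101 to 223) and 620 CPM (457 to 822), and after thinning each cell to 1000 UMIs it was detected in 12.3% and 42.4% of NK cells. Zeb2 was also higher in the T gate cells of Flox control 2 (80.0 CPM in Flox control 1 and 810 CPM in Flox control 2), and Itga2 was at 33.1 and 40.5 CPM in them.

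Of 10 measured genes of early maturation, Tcf7 and Ctla2a were higher in Flox control 1, and Il7r in Flox control 2, so that the list did not move in 1 direction. Tcf7 had 368 CPM (284 to 469) in the NK cells of Flox control 1 and 103 CPM (44.6 to 204) in those of Flox control 2, while T gate cells had 432 and 415 CPM. Ctla2a had 844 CPM (714 to 991) and 129 CPM (61.9 to 237), and in T gate cells it was 532 and 132 CPM. Cd27 was low in both libraries, with 85.0 CPM (47.6 to 140) and 51.6 CPM (14.1 to 132), and the intervals overlapped. Of the 107 NK cells 16 had Cd27 without Itgam, 26 had Itgam without Cd27, 1 had both and 64 had neither. Without the barcodes over 5000 UMIs the order of Gzmb, Zeb2, Itga2, Tcf7 and Ctla2a was the same, and the intervals still did not overlap. Those of Prf1 then overlapped, with 422 CPM (325 to 540) in Flox control 1 and 728 CPM (531 to 974) in Flox control 2. Eomes, whose intervals overlapped with all cells, then had 670 CPM (545 to 815) in Flox control 1 and 356 CPM (223 to 539) in Flox control 2.

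**Figure D4:**
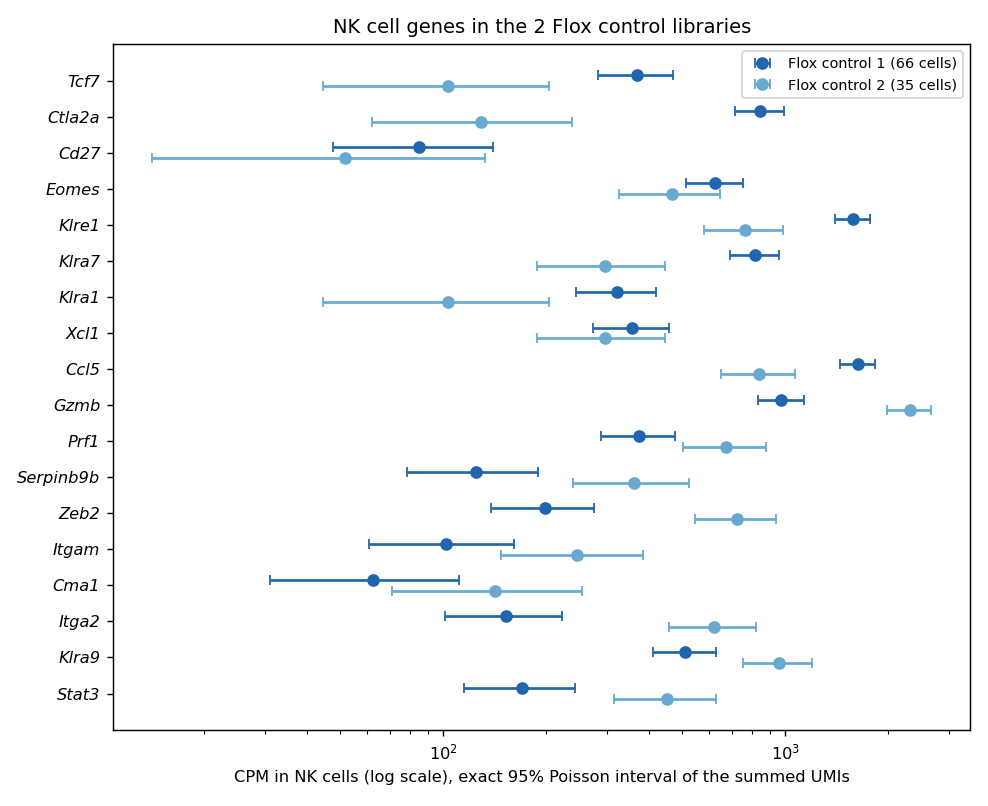
CPM of 18 genes (log scale) in the NK cells of Flox control 1 (66 cells) and Flox control 2 (35 cells), with exact Poisson 95% intervals of the summed UMIs, which cover counting error only. Tcf7, Ctla2a, Klre1, Klra7, Klra1 and Ccl5 are higher in Flox control 1, and Gzmb, Prf1, Serpinb9b, Zeb2, Itga2, Klra9 and Stat3 in Flox control 2, with intervals that do not overlap here. Those of Prf1 overlap without the largest barcodes.

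Most measured genes of the cell cycle and of the interferon response were lower in NK than in T gate cells. Of 18 measured cell cycle genes 16 were lower in NK cells in both Flox control libraries and none was higher. Mki67 had 85.0 and 0 CPM in NK cells, against 569 and 506 CPM in T gate cells, and 11 of its 15 UMIs lay in a single NK barcode of Flox control 1. At least 2 of 6 cycling genes were present in 0 of 2 and 0 of 4 NK cells of the cKO libraries and in 1 of 66 and 0 of 35 of the Flox control libraries, where the T gate shares were 3.33% and 6.82% in the cKO libraries, against 12.6% and 6.67% in the Flox control libraries. With no cycling cell in the cKO libraries the ratio of the cycling shares has no value. Median depth was lower in NK than in T gate cells in every library, with 1286.5 against 2362 UMIs in Ms4a3 cKO 1, 1587 against 1974 in Ms4a3 cKO 2, 2357.5 against 2580 in Flox control 1 and 1637 against 2029 in Flox control 2. With each cell thinned to 1000 UMIs, shallower cells left out, at least 2 cycling genes were present in 0 of 1 and 0 of 4 NK cells of the cKO libraries and in 1 of 65 and 0 of 33 of the Flox control libraries, while the T gate shares were 3.45% and 7.14% in the cKO libraries, against 9.11% and 4.65% in the Flox control libraries.

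Of 23 measured interferon response genes 15 were lower in NK cells in both libraries and none was higher. Ifit3 had 39.7 and 0 CPM in NK cells, against 330 and 81.0 CPM in T gate cells. Ifi47, an interferon-induced GTPase gene, was the most abundant, with 408 and 336 CPM in NK cells, against 661 and 182 CPM in T gate cells. Of 14 measured class I presentation genes, 5 had higher NK cell levels in Flox control 1 than in Flox control 2, with intervals that did not overlap, and none had lower, where 2.77% of all 4623 genes were higher in Flox control 1. B2m, the gene of the class I light chain, had 7302 and 3163 CPM in NK cells of Flox control 1 and 2, and 7492 and 3088 CPM in T gate cells.

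The 6 NK cells of the Ms4a3 cKO libraries could be described one by one. Their depths were 1587 and 986 UMIs in Ms4a3 cKO 1 and 1318, 1057, 1856 and 2703 UMIs in Ms4a3 cKO 2. They carried 15, 12, 9, 8, 7 and 10 of the 21 NK markers outside the gate. Each had Gzmb and Klrd1, 4 also had Gzma, and 3 had Prf1. Eomes was present in both cells of Ms4a3 cKO 1 and in none of the 4 of Ms4a3 cKO 2. None was marked as a doublet.

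With 9507 UMIs in all, the 6 cells allow few comparisons of levels. Klrd1 summed to 27 UMIs, or 2840 CPM (1872 to 4132), in the cKO cells, against 438 UMIs, or 1724 CPM (1567 to 1894), in the Flox control cells. Gzma had 4628 CPM (3363 to 6213) in the cKO cells and 4205 CPM (3956 to 4465) in the Flox control cells, and Prf1 had 526 CPM (171 to 1227) in the cKO cells and 465 CPM (385 to 556) in the Flox control cells, so that these levels were not distinguishable at this depth. The Prf1 value rests on 3 UMIs in Ms4a3 cKO 1 (1166 CPM) and 2 in Ms4a3 cKO 2 (288 CPM). The intervals given here are of UMIs summed over the libraries of a group. They cover counting error only and leave out the variation between cells and between libraries. For some genes, picked after their values were seen, the intervals of cKO and Flox control cells did not overlap. The share of all genes for which this holds was not counted, so no genotype difference can be read from these genes. Gzmb had 3050 CPM (2043 to 4381) in the cKO cells and 1382 CPM (1241 to 1534) in the Flox control cells, where Ms4a3 cKO 1 stood at 5441 and Ms4a3 cKO 2 at 2163 CPM, and Flox control 2 alone reached 2311 CPM. Of the 14 Gzmb UMIs of Ms4a3 cKO 1, 11 lay in 1 cell. Klra8 had 2 UMIs in the cKO cells, both in Ms4a3 cKO 1, or 210 CPM (25.5 to 760), and 1654 CPM (1499 to 1820) in the Flox control cells. Ccr2 had no UMI in the cKO cells, where 3 UMIs would be 316 CPM, and 1028 CPM (907 to 1160) in the Flox control cells. A gene-by-gene test between genotypes was not made, since 2 of the 4 libraries had fewer than the 10 NK cells required for one.

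Htr2b, the targeted gene, and Ms4a3, the source of the Cre driver, had no UMI in any of the 107 NK cells. The annotation places Htr2b on chromosome 1 from 86099026 to 86111970 on the minus strand of GRCm38. For the NK cells the deletion can thus be neither seen nor checked. In the microglia gate Htr2b stood at 102 and 80.5 CPM in Ms4a3 cKO 1 and 2, against 42.3 and 92.1 CPM in Flox control 1 and 2. Of 10 serotonin-related genes looked up, 3 had a UMI in any NK cell, and these were single to few counts of Htr1b, Htr7 and Maoa.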

How the data were processed

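Single-cell libraries of 2 Ms4a3 cKO and 2 Flox control samples were analysed, with groups taken from the sample titles. The authors deposited unnormalized counts of UMIs for 31253 genes in every barcode, from BD Rhapsody whole-transcriptome libraries run on a DNBSEQ-T7 per the labels' protocols. Trimming used fastp 0.24.0, and STARsolo on mm10 made the counts, per the submitters' processing notes. The STARsolo version and annotation, and how barcodes were filtered, were not given in the sources used here.

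Kept barcodes (60942 of 63181) had 500 or more UMIs and 250 or more genes, with mitochondrially encoded genes giving under 20% of their UMIs. Library totals were 77580518 and 84397197 UMIs in Ms4a3 cKO 1 and 2 and 105566650 and 105545311 UMIs in Flox control 1 and 2. Cell gates used the presence of UMIs. The microglia gate required at least 3 of P2ry12, Tmem119, Siglech, Gpr34 and Olfml3 with no Ncr1, Klrb1c or Cd3 UMI, and the endothelial gate Cldn5 with Flt1, Pecam1 or Cdh5 and no Ptprc, Csf1r, Ncr1, Klrb1c or Cd3 UMI. Doublets were left in, and Scrublet (scanpy 1.11.5, expected rate 6%) served as an alternative; it called 1257 kept barcodes, or 2.50 and 2.10% in the cKO and 2.22 and 1.50% in the Flox control libraries. UMIs were summed per library and gate and scaled to CPM. Shares have exact Clopper-Pearson and sums exact Poisson 95% intervals; both, like floors of 3 counts, cover counting error only. Group shares were compared as log2 ratios of means with a two-sided exact permutation test over libraries (scipy 1.17.1). The gate was checked on simulated data. Negative binomial fits of the genotype difference and of its difference between NK and T cells were planned where every library had at least 10 NK cells; 2 of 4 did not, so none was made and the rule for named genes that needed p-values named none. Genes are named from 30 gene lists, by level, by the ratio of NK over other barcodes (15 genes with at least 100 CPM in every library), or, as further examples from these lists, after their values were seen. Members, gates and gene lists were chosen with earlier results of these data known. Of the listed genes, 4 had no entry in the gene table used here. Alternatives are given in the closing section. Coordinates are from GENCODE M21 on GRCm38.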

Additional observations from a re-analysis of the deposited data

How the results depend on the processing

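The lower NK share in Ms4a3 cKO than in Flox control libraries kept its direction under 7 other settings (at least 1000 UMIs, under 10% mitochondrial UMIs, predicted doublets removed, at least 3 of the 5 NK genes, thinning to 1000 UMIs before the gate, Csf1r and Cldn5 free, and barcodes with Ptprc as denominator), with log2 ratios of -4.36 to -3.71, and without each library in turn, with -4.74 to -3.45. The NK share of NK and T gate barcodes kept its direction under 5 settings (-2.22 to -1.12) and without each library in turn (-2.58 to -0.79). The T gate share, set beside them after the cell numbers were seen, moved most without Flox control 1 (-3.83 to -0.19 over the libraries left out). Requiring no UMI of T cell receptor constant genes left no NK cell in the cKO libraries, so no ratio could be formed, and the cycling share had none with thinning, with at least 3 cycling genes or without any 1 library, since no cKO cell passed. No exact p fell below 0.33, the smallest these designs allow. With the replicate number as a block, added after seeing the data, the mean log2 ratio of same-numbered libraries was -4.14 for the NK share of kept barcodes (-5.22 and -3.05) and -1.70 for the NK share of NK and T gate barcodes (-1.01 and -2.39), each with an exact sign-flip p of 0.5, the smallest that 2 pairs allow. In the labels the same-numbered libraries share only a number. Over 16010 genes their deviations from their group means had a correlation of 0.0087. With 2 libraries per group, this value cannot settle whether same-numbered libraries shared a batch. The gene fits, with their block, scalings, filters and tools, were not made, since 2 libraries had under 10 NK cells. Leaving out NK barcodes with over 5000 UMIs, chosen after seeing the data, lowered Sparc in Flox control 2 to 65 CPM, against 1175 CPM with them, and H2-Aa in Flox control 1 to 67 CPM, against 397 CPM, while H2-Aa in Flox control 2 was at 1327 CPM, against 1058 CPM with them.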
